A study of Caenorhabditis elegans with 12 samples.

Results

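hrg-3 and hrg-7 encode secreted proteins of heme homeostasis in Caenorhabditis elegans, and each is measured by 1 probe set of an Affymetrix expression array, hrg-3 by 177544_at and hrg-7 by 190619_at. The members were taken by gene symbol, which gives 2 of the 17138 genes that the probe annotation names by a single symbol. The series holds 12 arrays of total RNA from animals labelled as mid to late L4, the last larval stage. They form 4 groups of 3: wildtype with 4 µM heme, wildtype with 20 µM heme, hrg-2 mutant with 4 µM heme and hrg-2 mutant with 20 µM heme. Neither the wildtype strain, the hrg-2 allele nor the culture medium is named in the labels. Each group had a single heme concentration, 4 or 20 µM, and no group was without heme. For hrg-2 the annotation names 0 probe sets, which leaves the genotype labels without a check by its own level. Whether a group's 3 arrays stem from separate cultures is not stated, and the p-values therefore measure the spread between these samples alone, which may be technical.

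C. elegans cannot make heme and depends on heme taken up from its surroundings. The intestine is the site of uptake, and other tissues and the embryos depend on heme passed on from it. HRG-3 is a small heme-binding protein that the maternal intestine secretes and that carries heme to the developing oocytes and embryos. HRG-7 resembles aspartic proteases and is secreted by the intestine as a signal to other tissues, with input from the nervous system through the BMP-like ligand DBL-1. HRG-2, the protein affected in the mutants, sits in membranes of the hypodermis (the skin of the worm) and takes part in heme use there. The comparisons address how these secreted proteins' transcripts vary with the heme supplied and with the hrg-2 mutation.

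Both transcripts were high at 4 µM heme and low at 20 µM heme, in wildtype and in mutant animals alike. With 20 µM heme hrg-3 was 41.2-fold lower in wildtype and 32.7-fold lower in the mutant, and hrg-7 was 18.3-fold lower in wildtype and 18.2-fold lower in the mutant. No genotype difference passed the test for either gene. All values below are the deposited log2 RMA values (robust multi-array average, a background-corrected and between-array normalized summary of the probes of a set), and folds are powers of 2 of their differences.

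The log2 level of hrg-3 in wildtype at 4 µM heme was 8.21, 8.35 and 7.48 on the arrays numbered 1, 2 and 3 in the titles. In wildtype at 20 µM it was 2.98, 2.59 and 2.38. The mutant had 8.09, 7.75 and 7.42 at 4 µM and 3.25, 2.47 and 2.45 at 20 µM. Every one of the 6 arrays at 4 µM lay above every one of the 6 at 20 µM, with a gap of 4.18 log2 units between the nearest. At 20 µM the values lay 0.617 to 1.44 log2 units above the lowest value of their array, against 5.55 to 6.6 at 4 µM. The floor of the signal therefore limits the fold of hrg-3.

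The log2 level of hrg-7 in wildtype was 12.42, 12.42 and 12.32 at 4 µM heme and 8.33, 8.38 and 7.88 at 20 µM. In the mutant it was 12.77, 12.72 and 12.05 at 4 µM and 8.63, 8.10 and 8.25 at 20 µM. Again the 6 arrays at 4 µM all lay above the 6 at 20 µM, here by at least 3.42 log2 units. Unlike hrg-3, hrg-7 stayed far from the floor at 20 µM, at 6.12 to 6.82 log2 units above the lowest value of its array. At 4 µM its probe set was brighter than 98.8% to 99.6% of the probe sets of each array, which describes its place in the signal range and not its abundance.

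**Figure D1:**
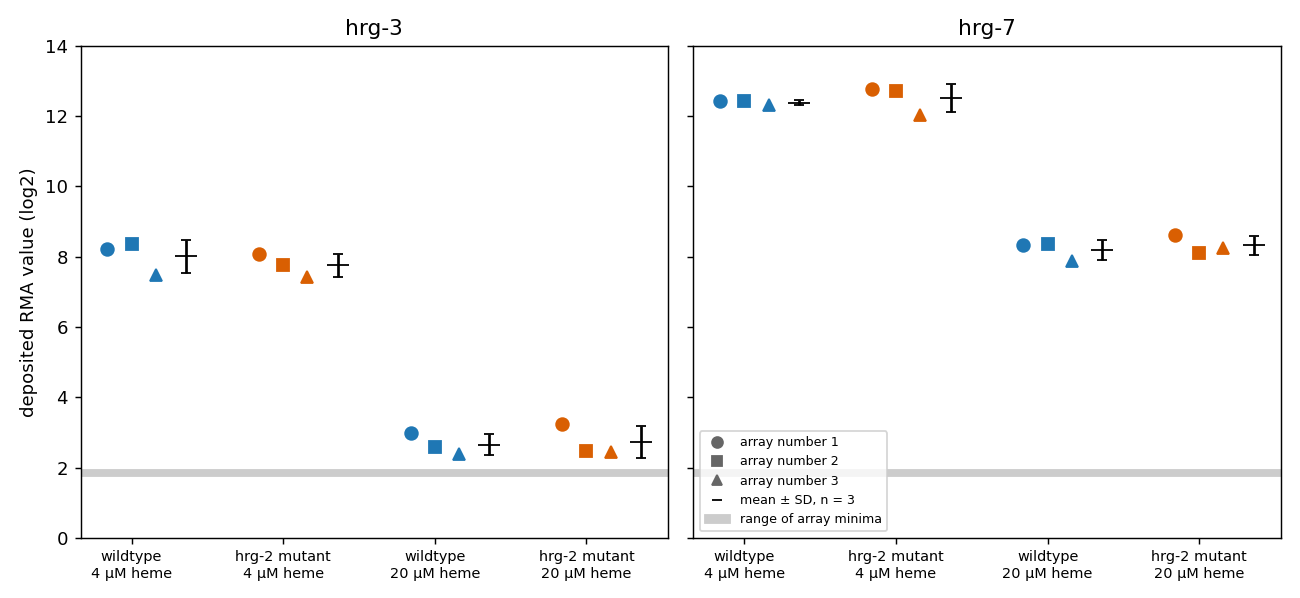
Deposited log2 RMA values of hrg-3 (left) and hrg-7 (right) on each of the 12 arrays, by genotype and heme, with the array's number as the symbol and the mean ± SD (n = 3) as a bar. The grey band marks the lowest values of the 12 arrays (1.76 to 1.92), and only hrg-3 at 20 µM heme comes near it.

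By group mean, hrg-3 stood in the order wildtype at 4 µM (8.01 ± 0.47), mutant at 4 µM (7.75 ± 0.33), mutant at 20 µM (2.72 ± 0.46) and wildtype at 20 µM (2.65 ± 0.30; SD, n = 3 each). The order for hrg-7 was mutant at 4 µM (12.51 ± 0.40), wildtype at 4 µM (12.39 ± 0.06), mutant at 20 µM (8.32 ± 0.27) and wildtype at 20 µM (8.20 ± 0.28). At each heme level the ranges of the genotypes overlap. For hrg-7 at 4 µM the wildtype range (12.32 to 12.42) lies within that of the mutant (12.05 to 12.77). Wildtype varied so little there that the difference of the means exceeds the wildtype SD while lying within the mutant's. The heme levels are separated.

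In wildtype the difference (20 minus 4 µM heme) was -5.36 ± 0.31 log2 units (SE) for hrg-3, a fold of 41.2 with a 95% interval of 25.4 to 66.6. For hrg-7 it was -4.19 ± 0.24, a fold of 18.3 with an interval of 12.7 to 26.4. Both had an adjusted p of 7.94e-05 by limma with Benjamini-Hochberg adjustment over 22548 probe sets. They were 2 of only 8 probe sets called at an adjusted p under 0.05, which is 0.0355% of those tested, all lower at 20 µM. On arrays numbered 1 and 2 only, 55 were called, of which 28 were lower. By unadjusted p hrg-7 stood at rank 1 and hrg-3 at rank 2, and by size of the difference hrg-3 stood at rank 1 and hrg-7 at rank 5.

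In the mutant the heme difference was -5.03 ± 0.31 for hrg-3 (adjusted p 0.000149) and -4.19 ± 0.24 for hrg-7 (adjusted p 0.000126), by limma. The 95% intervals of the folds were 20.2 to 53.0 for hrg-3 and 12.6 to 26.3 for hrg-7. Here 9 probe sets were called, 0.0399%, again all lower at 20 µM, and hrg-7 and hrg-3 again held ranks 1 and 2 by p. On arrays numbered 1 and 2 only, 3167 were called (1485 lower). The wildtype and mutant differences share no array. Their tests share the estimate of the spread, which came from the arrays of all groups. The p-values and ranks in the genotypes are therefore not independent.

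Averaged over the genotypes the heme difference was -5.20 ± 0.22 for hrg-3 (36.7-fold, interval 26.1 to 51.6) and -4.19 ± 0.17 for hrg-7 (18.2-fold, interval 14.1 to 23.7). Each had an adjusted p of 3.39e-06 by limma, among 15 probe sets called (0.0665%), all lower. The probe set at rank 3 was that of math-14, at -4.86 with an adjusted p of 2.18e-05. With the title number as a block, 15, 18 and 35 probe sets were called in wildtype, in the mutant and on average (1, 3 and 6 of them higher at 20 µM), among them all 8, 9 and 15 called without it, and hrg-3 then stood at rank 1 in each and hrg-7 at ranks 4, 3 and 3.

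**Figure D2:**
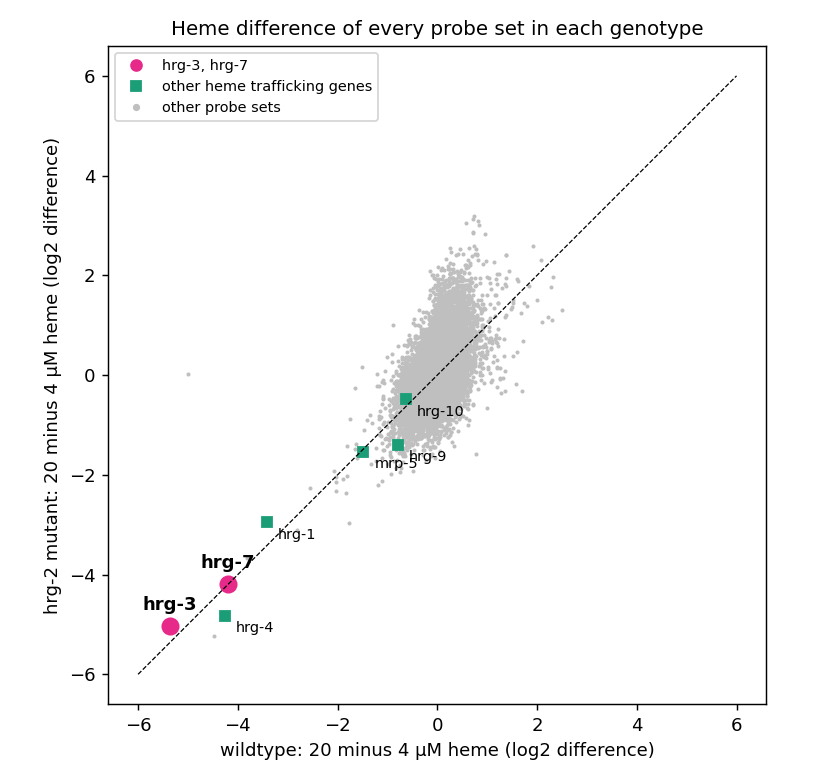
Log2 difference between 20 and 4 µM heme of every probe set in wildtype (horizontal axis) and in the hrg-2 mutant (vertical axis), with hrg-3 and hrg-7 as large circles and the other measured heme trafficking genes as squares. hrg-7 sits on the dashed line of equal differences (-4.19 in both) and hrg-3 lies near it (-5.36 and -5.03), far from the bulk of probe sets.

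Taken by title number, the wildtype array at 20 µM lay below its counterpart at 4 µM by -5.23, -5.77 and -5.10 for hrg-3 and by -4.09, -4.05 and -4.44 for hrg-7 (numbers 1, 2 and 3). In the mutant the differences were -4.84, -5.29 and -4.97 for hrg-3 and -4.14, -4.62 and -3.80 for hrg-7. The hrg-3 difference was the larger in 6 of 6 same-numbered pairs. Probe sets can differ in how they respond to the same change, so this orders the signals and was not tested as a difference in RNA.

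**Figure D3:**
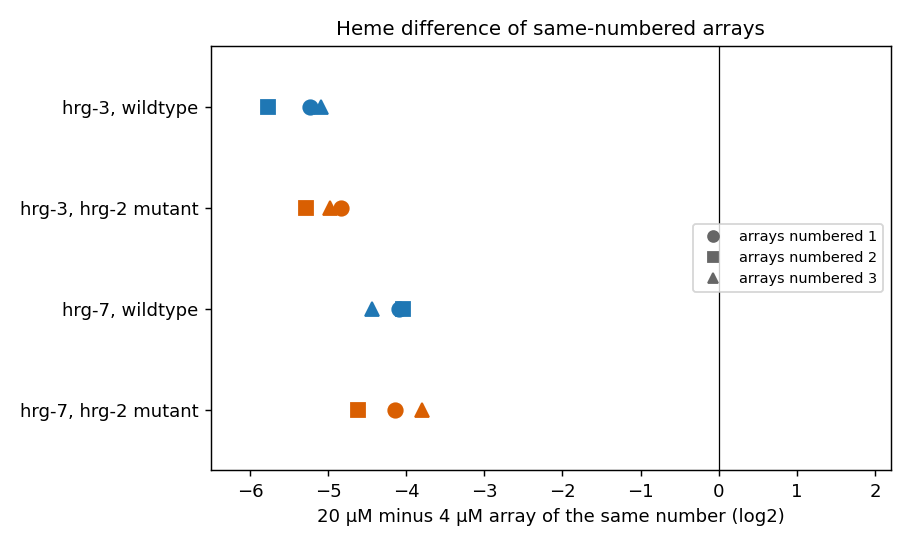
Difference between the 20 µM and the 4 µM array of the same title number, in log2 units, for each gene and genotype; symbols give the number. All 12 differences lie between -5.77 and -3.80, and arrays numbered 3 lie among the others for hrg-3 in the mutant and at an end of the range elsewhere.

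For neither transcript did a difference between mutant and wildtype pass the test. At 4 µM heme the mutant level over the wildtype level was 0.836 for hrg-3 (95% interval 0.517 to 1.35, log2 difference -0.26 ± 0.31, adjusted p 0.905) and 1.09 for hrg-7 (0.755 to 1.57, 0.12 ± 0.24, adjusted p 0.951), by limma. At 4 µM 2 probe sets were called in all (0.00887%), neither a member. On arrays numbered 1 and 2 only, 2922 were called at 4 µM and 275 at 20 µM, again without a member. At 20 µM the ratio was 1.05 for hrg-3 (0.650 to 1.70) and 1.09 for hrg-7 (0.757 to 1.58), with an adjusted p of 1.00 for each by limma and 1 probe set called in all (0.00443%). As hrg-3 lay near the signal floor in both genotypes at 20 µM, its ratio there is held toward 1, and a difference below the floor would not be seen. By title number the hrg-3 differences were -0.12, -0.60 and -0.05 at 4 µM and 0.27, -0.12 and 0.07 at 20 µM. Those of hrg-7 were 0.34, 0.30 and -0.27 at 4 µM and 0.29, -0.28 and 0.37 at 20 µM. Both genes thus had differences of mixed sign at 20 µM, and hrg-7 also at 4 µM.

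Averaged over the heme levels, the ratio of mutant to wildtype was 0.937 for hrg-3 (0.667 to 1.32) and 1.09 for hrg-7 (0.842 to 1.41), with adjusted p of 0.930 and 0.893 by limma and 2 probe sets called in all (0.00887%), against 2996 on arrays numbered 1 and 2 only. A mutant change within these intervals could have gone undetected, and a p that misses the threshold does not show equal levels.

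The heme difference itself was compared between genotypes by an interaction term. The mutant's heme difference minus that of wildtype was 0.33 ± 0.44 log2 units for hrg-3 (95% interval -0.65 to 1.31) and 0.00485 ± 0.34 for hrg-7 (-0.74 to 0.75). The adjusted p was 1.00 for both by limma, and 0 of 22548 probe sets were called (0%), with 372 at an unadjusted p under 0.05. The hrg-3 value rests in part on the levels near the floor. As a ratio of folds the interval for hrg-7 ran from 0.597 to 1.69.

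Of the other 8 heme trafficking genes listed, 5 were measured, and the fitted heme difference of all 5 was negative in both genotypes. The plasma membrane heme importer hrg-4 fell, by 4.25 log2 units in wildtype (SE 0.55, adjusted p 0.0379) and by 4.83 in the mutant (SE 0.55, adjusted p 0.0159). It was the 1 of 5 that passed by limma in each genotype. The vesicular heme transporter hrg-1 passed on the average of genotypes alone, at -3.19 ± 0.35 (adjusted p 0.00779), so that 2 of 5 passed there. With the title number as a block hrg-1 passed in each genotype too.

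The heme exporter mrp-5, which passes heme out of the intestine, differed by -1.51 ± 0.22 on average (adjusted p 0.0533), with a second probe set at -1.62, and passed with the block. The heme trafficking genes hrg-9 and hrg-10 differed by -1.09 ± 0.27 and -0.55 ± 0.18 (adjusted p 0.651 and 0.891). Without the members the median difference of the list was -1.48 in wildtype and -1.54 in the mutant, against -0.0049 and -0.049 over all probe sets. The list was chosen with earlier results of these data known, so this contrast is no independent finding. The standard errors per genotype were 0.24 for hrg-7, the lowest of these genes, 0.26 for hrg-10 and 0.31 for hrg-3 and mrp-5. They were 0.38 for hrg-9, 0.50 for hrg-1 and 0.55 for hrg-4. In wildtype hrg-7 and hrg-4 had similar differences, -4.19 and -4.25, but an adjusted p of 7.94e-05 and 0.0379 by limma. The hrg-4 call is the less secure. In wildtype, leaving out 1 array at a time ended it in 10 of 12 cases (adjusted p up to 0.293), all but those without mutant 4 µM replicate 3 or mutant 20 µM replicate 3. In the mutant it ended in 5 of 12 (up to 0.150), those without any mutant array other than mutant 4 µM replicate 3.

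**Figure D4:**
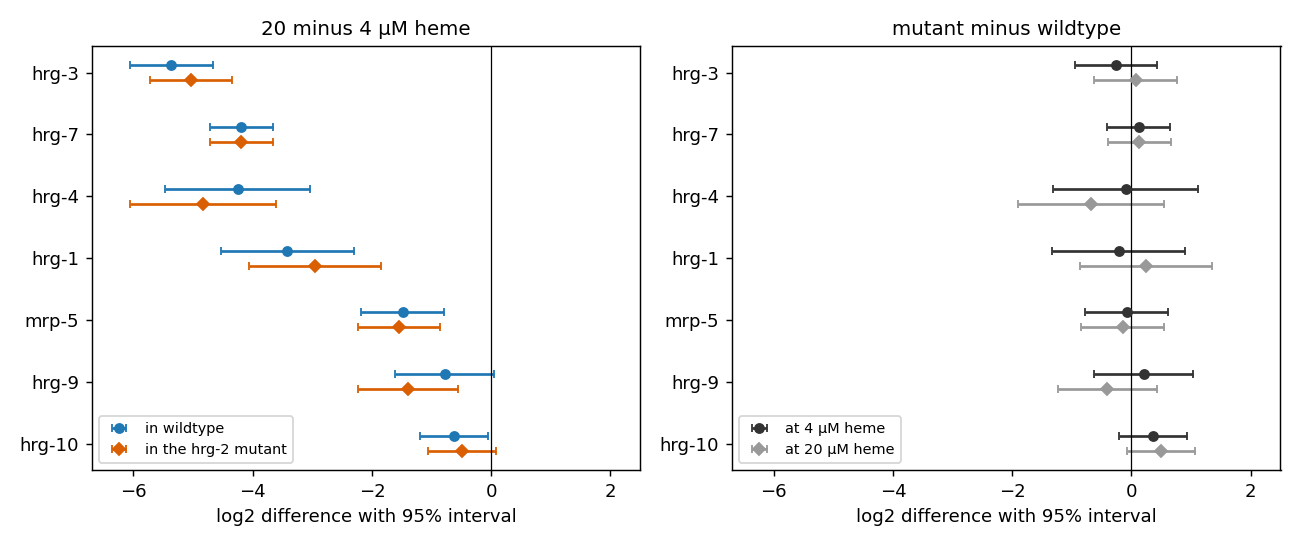
Log2 differences with 95% intervals from limma for hrg-3, hrg-7 and the other 5 measured heme trafficking genes: 20 minus 4 µM heme in each genotype (left) and mutant minus wildtype at each heme level (right). The heme intervals of hrg-3 and hrg-7 lie between -6.06 and -3.66, while every genotype interval spans 0.

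HRG-7 is related to aspartic proteases, and of the 19 asp symbols listed 15 were measured, hrg-7 itself not counted. Genes were matched by current symbol, so a listed gene that now carries another symbol counts as not measured. None of these 15 passed in either genotype or on average (0 of 15 by limma, with 3, 3 and 2 at an unadjusted p under 0.05), also with the block. Of all probe sets 1.39%, 6.16% and 5.28% had such a p. Their median heme difference was -0.03 averaged over the genotypes, equal to that of all probe sets to 2 decimals. The members of smallest p were asp-7 (-0.88 ± 0.22, adjusted p 0.668), asp-14 (1.75 ± 0.50, adjusted p 0.762), asp-12 (0.55 ± 0.26) and asp-8 (-0.42 ± 0.28), which differ in sign.

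Of 12 genes of the DBL-1 pathway, a BMP-like pathway that sets body size, 11 were measured. For heme 0 of 11 passed by limma in any of the 3 comparisons, with 0 at an unadjusted p under 0.05, and their averaged median was -0.0013. The ligand gene dbl-1 differed by 0.0088 ± 0.24 and its receptor genes daf-4 and sma-6 by -0.21 ± 0.26 and -0.05 ± 0.37. The members of smallest p were the Smad gene sma-2 (-0.27 ± 0.19), lon-1 (0.41 ± 0.34), daf-4 and the Smad gene sma-4 (-0.20 ± 0.31). Between genotypes, averaged over heme, all 11 had a negative difference (median -0.19) and 0 passed, with 2 at an unadjusted p under 0.05, dbl-1 (-0.54 ± 0.24, adjusted p 0.803) and the glypican gene lon-2 (-0.60 ± 0.26, adjusted p 0.803). Of all probe sets 6.18% had such a p in that genotype comparison, and their median difference was 0.016. Of the DBL-1 pathway list 7 of 11 were lower on the arrays numbered 3, described below.

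Both members are made in the intestine, and in whole animals less RNA per cell cannot be told apart from fewer cells of a type. Of 10 measured intestinal markers 0 passed for heme by limma (0, 1 and 1 at an unadjusted p under 0.05 in wildtype, the mutant and on average). Their median heme difference was 0.03 in wildtype, -0.22 in the mutant and -0.11 on average. The mean log2 level of these markers ranged in wildtype from 8.936 to 10.25 at 4 µM and from 9.31 to 10.09 at 20 µM, and in the mutant from 9.015 to 9.904 and from 9.157 to 9.581. The groups overlap. The largest difference among them in the mutant was that of elt-2, an intestinal GATA factor, at -1.02 ± 0.37 (adjusted p 0.799). For heme, 0 of 9 hypodermal, 0 of 6 yolk, 0 of 10 sperm and 0 of 14 oocyte and eggshell genes passed. On average over genotypes 2, 0, 0 and 0 of them had an unadjusted p under 0.05. In the mutant 3 of the 9 hypodermal genes had such a p, against 6.16% of all probe sets, and in wildtype 0. Their median heme difference in the mutant was 0.41, with 1 of 9 negative and a highest of 3.18. In wildtype it was 0.06, with 4 of 9 negative. The mean level of the hypodermal genes in the mutant was 8.41, 8.44 and 9.184 at 4 µM and 9.369, 9.155 and 9.707 at 20 µM, higher at 20 µM in each same-numbered pair. That of the sperm genes in the mutant was 5.363, 5.249 and 8.981 at 4 µM and 7.736, 6.876 and 8.501 at 20 µM, higher for numbers 1 and 2 and lower for number 3. In wildtype the hypodermal means ranged from 8.743 to 9.42 at 4 µM and from 8.629 to 9.633 at 20 µM, and the sperm means from 5.468 to 8.216 and from 5.827 to 8.338. The mean of the yolk genes ranged from 7.435 to 9.167 and from 8.028 to 9.328 in wildtype, and from 5.559 to 10.49 and from 5.705 to 9.484 in the mutant. That of the oocyte and eggshell genes ranged from 6.916 to 7.976 and from 6.987 to 8.093 in wildtype, and from 6.726 to 10.04 and from 7.058 to 8.666 in the mutant. The yolk, oocyte and sperm ranges overlap between heme levels in both genotypes, and the part of these levels in the heme differences of hrg-3 and hrg-7 was not tested.

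The arrays numbered 3 stood apart from numbers 1 and 2 in a comparison that pooled the 4 groups. Whether this holds over all probe sets in each single group was not tested. In each group both members lay lower on the array numbered 3 than the mean of numbers 1 and 2. For hrg-7 in the mutant at 20 µM, number 3 (8.25) still lay above number 2 (8.10). For hrg-3 the shift from the mean of numbers 1 and 2 was -0.80 and -0.40 in wildtype at 4 and 20 µM, and -0.50 and -0.41 in the mutant. For hrg-7 it was -0.10 and -0.48 in wildtype and -0.70 and -0.12 in the mutant. By limma the shift of hrg-3 was -0.53 ± 0.17 (adjusted p 0.0378) and that of hrg-7 was -0.35 ± 0.15 (adjusted p 0.103). This split of the arrays was chosen because earlier results of these same data had set number 3 apart. Its p-values and calls are therefore descriptive and no test of a factor fixed beforehand. Of all probe sets 18.7% were called lower and 30.1% in either direction, so the count of 1 of 2 members is no result about them. Leaving out 1 array at a time ended the hrg-3 call in 9 of 12 cases (adjusted p up to 0.139), all but those without wildtype 20 µM, mutant 4 µM or mutant 20 µM replicate 2. The hrg-7 shift passed without mutant 20 µM replicate 2 (adjusted p 0.0470).

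On the same arrays 6 of 10 intestinal markers were lower and 1 higher (median -0.80). Higher were 9 of 10 sperm genes (median 2.53), 12 of 14 oocyte and eggshell genes (1.38) and 2 of 6 yolk genes (1.69). Of the hypodermal genes 3 of 9 were higher and 2 lower. Of the other heme trafficking genes 2 of 5 were lower, hrg-4 (-1.24) and hrg-1 (-1.15), and 0 higher. Over all probe sets 11.4% were called higher and 18.7% lower. The part of these lists in the shift of hrg-3 and hrg-7 was not tested. On the pairs numbered 3, given above, the heme differences of both members were negative in both genotypes, from -5.10 to -3.80.

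In their pattern over the 12 arrays hrg-3 and hrg-7 were each other's closest match among 17136 other genes, with a Pearson r of 0.995. The arrays fall into separate heme levels, so this r mostly restates the heme difference. The genes next most like hrg-3 were gsto-1 (0.977), an omega-class glutathione transferase, ctsa-4.1 (0.976), hrg-4 (0.975), R193.2 (0.971) and hrg-1 (0.969). Those next most like hrg-7 were gsto-1 (0.982), math-14 (0.982), ctsa-4.1 (0.972), hrg-4 (0.972) and R193.2 (0.971). All of these were among the 15 probe sets called for heme on average, with log2 differences from -4.86 for math-14 to -2.09 for ctsa-4.1.

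When each group's mean was subtracted, the r between hrg-3 and hrg-7 was 0.729 over the same 12 arrays, of which the 4 numbered 3 carry the shift described above. By this measure hrg-7 stood at rank 801 among the genes most like hrg-3, and hrg-3 at rank 1022 among those most like hrg-7. The 5 closest to hrg-3 were sod-4 (0.957), an extracellular superoxide dismutase, gcy-7 (0.928), F22B5.10 (0.919), zyg-8 (0.913) and lgc-49 (0.907). The 5 closest to hrg-7 were F17C11.12 (0.944), srt-25 (0.939), nlp-49 (0.938), par-1 (0.931) and nrfl-1 (0.927). None of these 10 passed for heme by limma (averaged differences from -0.38 to 0.30), so the likeness within groups and the likeness across heme levels pick different genes.

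No measured neighbouring gene passed for heme. Of the 3 protein-coding genes on each side of hrg-3 in the RefSeq annotation of WBcel235, 5 were measured and 0 passed in any heme comparison by limma, with averaged differences from -0.88 to 0.58. Its direct neighbour F58E6.8 had the lowest of these (-0.88 ± 0.30, adjusted p 0.903) and was the 1 gene with an unadjusted p under 0.05 on average. The gene F58E6.11, which overlaps hrg-3 in that annotation, has no probe set of its own here. Of the 6 genes around hrg-7, all measured, 0 passed, with differences from -0.56 to 0.25 and 1 unadjusted p under 0.05, that of dhs-21. C15C8.7, which overlaps hrg-7 in the annotation, differed by -0.04 ± 0.20.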

How the data were processed

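The authors deposited a log2 RMA value for each probe set on each array. The software was Partek 6.5 according to the submitters' processing notes. Its settings were not given in the sources used here. Array medians over the probe sets tested lay between 5.735 and 5.932, and the number of arrays limits precision. Of 22625 probe sets 77 controls were left out and 22548 tested. Probe sets were named through the 2016 platform annotation, checked by gene ID against RefSeq (WBcel235, 0 symbols changed). 20810 probe sets had 1 symbol, 843 several and 895 none. Differences came from limma 3.58.1 in R 4.3.3 (two-sided), with 4 group means over 12 arrays, or group plus number 3 for the number comparison. Adjustment was Benjamini-Hochberg, with a threshold of 0.05. The fit was also run on simulated data with independent normal noise and no shift by title number. That run therefore does not cover the shift of number 3 in these data.

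The members, the gene lists and the split of number 3 against 1 and 2 were chosen with earlier results of these data known. Named were the members, the measured heme trafficking genes, up to 4 list genes of smallest p and the 5 genes of highest Pearson r to each member by each measure. Neighbours, receptor genes, elt-2 and math-14 were added outside that rule. Of several probe sets for a gene, the brightest on average stands for it. Title numbers 1 to 3 recur in each group. Deviations of same-numbered arrays of the groups compared correlated in all 12 pairs (r 0.255 to 0.817), those of different numbers at -0.792 to 0.606. Deviations cancel within a group, so a number 3 that stands apart makes numbers 1 and 2 alike. Mutant number 1 at 4 µM correlated at 0.255 with number 1 and at 0.557 with number 2 of the mutant at 20 µM. These values therefore do not establish a pairing by number. The numbers were also fitted as a block, although the labels state no pairing. Alternatives were median centring, repeated quantile normalization, a filter on dim probe sets, the block, array weights, only the groups compared, only numbers 1 and 2, and each array left out.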

Additional observations from a re-analysis of the deposited data

How the results depend on the processing

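All 109 alternative values of the heme differences of hrg-3 and hrg-7, in wildtype, in the mutant and on average, stayed lower at 20 µM and past the threshold. Some settings could not move the difference: the block, only the groups compared, the dim-probe filter and arrays left out of groups not compared. With these only the spread and the adjusted p could change. The alternative values ranged from -5.63 to -4.87 for hrg-3 (adjusted p up to 0.0275) and from -4.42 to -4.03 for hrg-7 (up to 0.0316). Of 109 alternative genotype values 0 passed. Their sign turned for hrg-3 at 20 µM with array weights (-0.0036) and for some fits with 1 array left out (range -0.19 to 0.24). It also turned in such fits for hrg-7 at 4 µM (-0.0041 to 0.36) and at 20 µM (-0.0302 to 0.24). The hrg-7 difference between heme effects turned with median centring (-0.13), array weights (-0.24), arrays numbered 1 and 2 only (-0.31) and with arrays left out (-0.23 to 0.13), and never passed. The shift of the arrays numbered 3 no longer passed for hrg-3 with array weights (-0.46, adjusted p 0.142) and ranged from -0.61 to -0.43 with arrays left out. That of hrg-7 ranged from -0.43 to -0.23. The causes were not tested. The replicate block changed no call of the members. It cannot change the difference, which in wildtype was -5.36 for hrg-3 (SE 0.20) and -4.19 for hrg-7 (SE 0.20). Calls over all probe sets for heme in wildtype, the mutant and on average numbered 8, 9 and 15. All of these were lower at 20 µM. On arrays numbered 1 and 2 only there were 55, 3167 and 1910, of which 28, 1485 and 931 were lower, and with array weights 15, 1004 and 294, of which 15, 637 and 187 were lower. Genotype calls at 4 µM, at 20 µM and on average rose from 2, 1 and 2 to 2922, 275 and 2996 on arrays numbered 1 and 2 only and to 3, 67 and 871 with array weights. hrg-3 lies below the median mean and gave no value under the dim-probe filter. Its level at 20 µM, near the floor, limits its fold.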

Other observations

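Among genes that carry an hrg symbol in the annotation but were not in the heme trafficking list, 5 were measured: hrg-11.2, hrg-11.3, hrg-11.4, hrg-13 and hrg-14. They were chosen after the data were seen. None was called for heme in wildtype, in the mutant or on average (0 calls by limma, 0 at an unadjusted p under 0.05, lowest adjusted p 0.870). By the probe set of highest mean per gene, their log2 differences ran from -0.35 to 0.29, and a further probe set of hrg-13 gave 0.62 in wildtype, 0.73 in the mutant and 0.67 on average, against -5.36 to -4.19 for hrg-3 and hrg-7.

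The 3 wildtype arrays at 4 µM heme held hrg-7 within 0.103 log2 units of each other, while hrg-3 on the same arrays spread over 0.875. In the mutant at 4 µM the spreads were 0.719 and 0.664.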
